A study of Mus musculus with 28 samples.

Results

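Cells on day 7 of reprogramming were compared between a group that had the p38 inhibitor during the induction (p38i) and a group that had it only before the induction (pre-p38i). The members were the 2 p38i libraries and the 2 pre-p38i libraries labelled day 7, 4 of the 28 RNA-seq libraries of the series, chosen by their labels. All 4 came from mouse embryonic fibroblasts (MEFs) with the genotype label WT. By the study's methods these were primary cells from mid-gestation embryos of crosses between the OG2 strain, which carries an Oct4-GFP reporter, and 129 mice, infected with retroviruses for Oct4, Klf4 and Sox2 (OKS) and then grown in the serum-free induction medium iCD1. The inhibitor was SB203580, which blocks the kinase activity of p38 alpha and beta. In p38i it was present in iCD1 up to day 7 and the MEFs had not been pretreated. In pre-p38i the MEFs had it before the switch to iCD1 and the induction ran without it. The groups thus differed in both windows, and an effect of the early window and of the late window cannot be told apart from these 4 libraries alone. For this reason the 2 control libraries of day 7, labelled ctr and called DMSO here after their solvent, with the inhibitor in neither window, are given beside them.

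p38 MAP kinases are activated by stress and by inflammatory cytokines, and they signal to transcription factors, to RNA-binding proteins and to the kinases Mapkapk2 and Mapkapk3. During reprogramming to induced pluripotent stem cells, fibroblasts first lose mesenchymal genes and gain epithelial junctions and keratins, a mesenchymal-to-epithelial transition, and later switch on the endogenous pluripotency network around Nanog. Cells divide many times on the way, and most cells of a culture do not complete it. In bulk RNA a lower value can be fewer cells that express the gene or less RNA per cell, and these cannot be told apart.

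The values are read here as TPM, a gene's share of the transcripts of its library after division by length, and they were tested with limma after a log2(value + 1) transformation, in a fit of all 28 libraries. Differences are p38i minus pre-p38i, so a negative difference is a lower level in p38i. Nothing in the labels says whether the replicates were separate cultures, and the p-values measure the spread between these libraries, which may be technical. Between the 2 libraries of a group, log2 values differed with an SD of 0.367 over genes in p38i and 0.339 in pre-p38i, within the range of 0.321 to 0.397 of the 14 groups. Of 13230 genes tested, 7181 (54.3%) were called at a Benjamini-Hochberg adjusted p under 0.05. Of these, 3277 (24.8% of the genes tested) were higher in p38i and 3904 (29.5%) were lower. A log2 difference of at least 1 in size was reached by 939 genes higher in p38i (7.1%) and by 1030 lower (7.79%). The median difference over all genes was -0.05, and the 10th and 90th percentiles were -0.88 and 0.83. The 2 groups did not overlap at 9362 genes (70.8%). Of the genes tested, 84 passed the filter only through the 2 pre-p38i libraries and 27 only through the 2 p38i libraries, since their mean over the other 26 libraries was under 1. The libraries of the other group are among those 26, so the filter favoured a difference in such a gene without fixing it. No p is given for those named. A count for a gene list below is therefore to be read against a high background of calls.

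**Figure D1:**
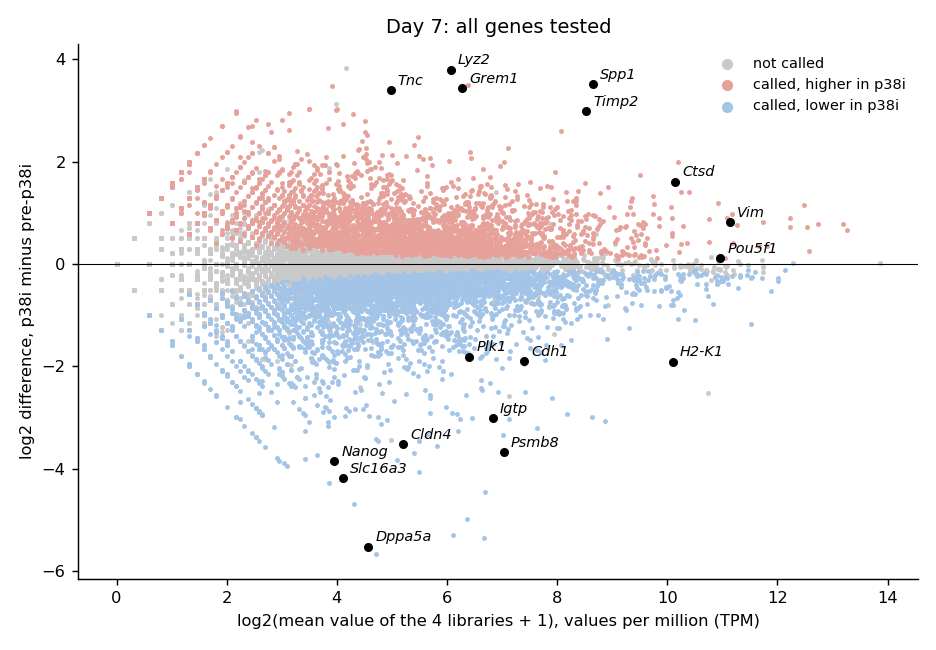
Each point is a gene tested. The horizontal axis gives log2 of its mean over the 4 libraries plus 1 (TPM) and the vertical axis its log2 difference of p38i minus pre-p38i on day 7, red where called higher, blue where called lower and grey where not called. Among the named genes in black, Lyz2 stands at 3.80 and Nanog at -3.86, Dppa5a, listed at 0 in p38i, lies lower still, and Pou5f1 is at 0.11.

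The libraries also differed in composition. Mitochondrially encoded transcripts took 4.88% to 5.75% of the total in p38i and 3.04% to 3.21% in pre-p38i, and 12 of the 15 tested mitochondrial genes were called higher in p38i, with a median difference of 0.76. The 10 highest genes took 8.69% to 8.8% in p38i and 6.28% to 6.51% in pre-p38i. Their part in the differences below was not tested. Fibroblast markers were detected in the 4 libraries, mostly far below MEFs. Col1a1 was at 270 and 277 in p38i and 142 and 150 in pre-p38i, against 3867 and 4164 in MEFs, and Pdgfra was at 3 and 4 in p38i, 1 and 2 in pre-p38i and 26 and 27 in MEFs. Col3a1 in p38i overlapped MEFs, at 270 and 281 in p38i and 195 and 209 in pre-p38i, against 247 and 284 in MEFs. Dcn and Lum, also on that list, were at 7 and at 0 in the MEF libraries themselves.

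The reprogramming factors stood at like levels in the groups. Reads of the viral copies and of the endogenous genes are summed in these values. Sox2, a partner of Oct4 on DNA, was at 752 and 823 in p38i and at 783 and 807 in pre-p38i, a log2 difference of -0.01 (SE 0.18, adjusted p = 0.972). Klf4 was at 596 and 607 in p38i and 588 and 600 in pre-p38i (difference 0.02, SE 0.08, adjusted p = 0.879). Pou5f1, which encodes Oct4, was at 2008 and 2144 in p38i and 1915 and 1918 in pre-p38i (difference 0.11, SE 0.05, adjusted p = 0.0386). That call was lost without p38i replicate 2, without either pre-p38i library and in a fit of the 4 libraries alone, where adjusted p values reached 0.326. On day 1 all 3 genes had been called lower in p38i, as were 19.9% of the genes tested, with Pou5f1 at 2295 and 2314 against 3768 and 3846 in pre-p38i.

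Pluripotency genes were lower in p38i. Of 42 listed genes, 27 passed the filter for testing, 19 of these were called lower and 2 higher, and the median difference was -0.95. Among the 12 transcription factors tested, 10 were lower and none was higher, and Tbx3 and Nr0b1 did not pass the test. Sall4 and Esrrb passed the filter only through the pre-p38i libraries. Without them 8 of 10 factors were lower, and over the list 17 of 25 were lower and 2 higher, with a median of -0.79. Nanog (chr6:122707489-122714633 in GRCm38), a homeobox factor of the naive pluripotent state, was at 1 in both p38i libraries and at 28 in both pre-p38i libraries, with DMSO at 12 and 16. This was a difference of -3.86 (SE 0.27, adjusted p = 3.73e-10), or 14.5-fold lower in p38i on the log2(value + 1) scale, which understates folds of genes this low. Neither p38i library reached the lowest DMSO library. The gene's promoter is shown because it holds a composite octamer and Sox element, the kind of sequence that Oct4 and Sox2 bind side by side. In the RefSeq promoter table for GRCm38.p6 (250 bases before to 50 after the start site) it lies at chr6:122707239-122707538 on the plus strand, with the match to TTTGCAT, any base and ACAATG in capitals, 75 bases before the start site.

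Nanog: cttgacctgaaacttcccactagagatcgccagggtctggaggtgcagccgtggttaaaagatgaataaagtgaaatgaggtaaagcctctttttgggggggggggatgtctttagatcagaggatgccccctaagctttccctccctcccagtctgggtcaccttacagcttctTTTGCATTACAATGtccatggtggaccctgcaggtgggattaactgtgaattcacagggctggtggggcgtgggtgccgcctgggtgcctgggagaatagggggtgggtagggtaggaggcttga

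Among the promoters of 9818 tested genes that had an entry, searched on both strands, this was the only match, 0.0102%. The searched letters are those of the Nanog promoter with a base left free, so Nanog had to match. So long and strict a pattern seldom finds others, and the count does not measure how rare such elements are. A match is a description of letters, not of binding in these cells.

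Several other pluripotency genes were listed at 0 in p38i. Dppa5a, an RNA-binding protein restricted to pluripotent cells, was at 0 in both p38i libraries, at 41 and 50 in pre-p38i, with DMSO at 22 and 30 (adjusted p = 3.7e-12). It shares 417 bases at 95.9% identity with a transcript of Pigp, which was at 23 to 33 in the 4 libraries. Sall4, a zinc finger factor of early embryonic cells, was at 0 in both p38i libraries and at 9 and 11 in pre-p38i. Esrrb, an orphan nuclear receptor of the naive network, was at 0 in p38i and at 8 and 10 in pre-p38i. The groups did not overlap at Dppa5a, as at 70.8% of the genes tested, and it was named under a rule that required this. For Sall4 and Esrrb, which passed the filter only through pre-p38i, the filter favoured a lack of overlap. Dppa3, a maternal factor that marks a late stage of reprogramming, did not pass the filter, with 0 in both p38i libraries, 2 and 3 in pre-p38i and 0 and 1 in DMSO. Crxos, a homeobox gene of embryonic stem cells, was at 0 in p38i and at 10 and 19 in pre-p38i, through which alone it passed the filter. Esrrb, like Zfp42 and Alpl below, was chosen after its values were seen. Zfp42, also known as Rex1, was detected in both groups, at 7 and 9 in p38i and 44 and 45 in pre-p38i, a difference of -2.35 (SE 0.29, adjusted p = 1.13e-06).

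The list's higher genes were Spp1 and Upp1. Spp1, which encodes the secreted phosphoprotein osteopontin, was at 711 and 765 in p38i and at 57 and 71 in pre-p38i, a difference of 3.51 (SE 0.08, adjusted p = 1.13e-16). It is also a matrix and macrophage gene, and MEFs had it at 736 and 836. Upp1, a uridine phosphorylase, was at 98 and 118 in p38i and 58 and 71 in pre-p38i (difference 0.74, SE 0.12, adjusted p = 2.89e-05), a call lost in a fit of the 4 libraries alone. Alpl, the alkaline phosphatase long used to stain reprogrammed colonies, was at 95 and 97 in p38i and at 319 in both pre-p38i libraries (difference -1.72, SE 0.26, adjusted p = 1.62e-05), a call that was lost with a pseudocount of 0.1.

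**Figure D2:**
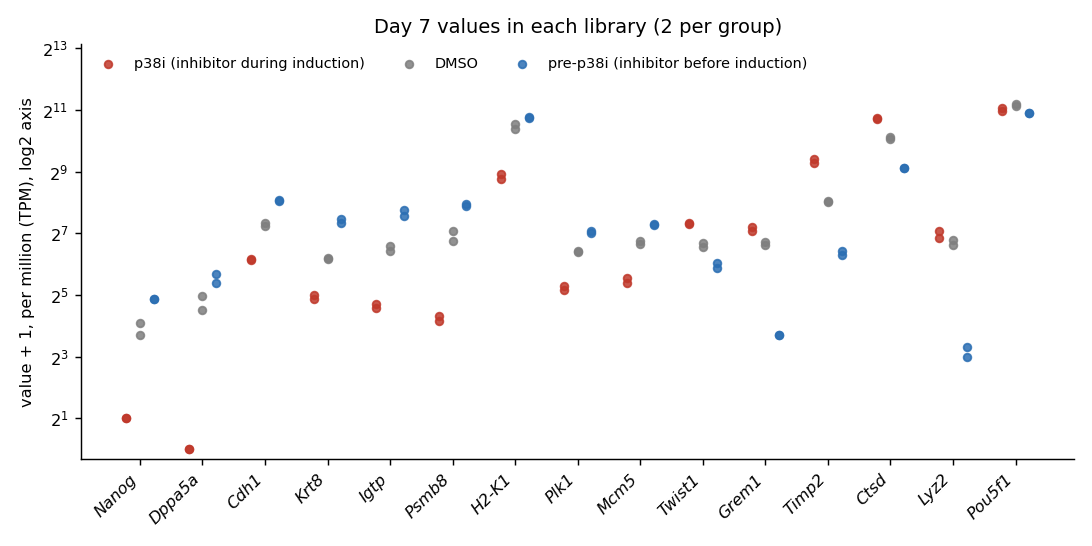
Values plus 1 (TPM) of 15 genes on a log2 axis in each of the 6 day 7 libraries, with p38i in red, DMSO in grey and pre-p38i in blue. For Nanog, Cdh1, Igtp and Plk1 the DMSO libraries lie between the others, with p38i lowest, and for Grem1, Timp2 and Ctsd p38i is highest.

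Epithelial genes were lower in p38i. Of 41 listed genes 33 were tested, 28 were called lower in p38i and none higher, with a median difference of -1.81. Cldn6 passed the filter only through pre-p38i, and without it 27 of 32 were lower. Among those that did not pass the test was Jup, plakoglobin, at 205 and 208 in p38i and 217 and 218 in pre-p38i. Cdh1, which encodes E-cadherin, the adhesion molecule of adherens junctions, was at 70 and 71 in p38i, 263 and 268 in pre-p38i and 151 and 159 in DMSO. The difference was -1.90 (SE 0.10, adjusted p = 3.7e-12), or 3.73-fold. Epcam, another epithelial adhesion molecule, was at 89 and 98 in p38i and 332 and 358 in pre-p38i (difference -1.87, SE 0.20, adjusted p = 1.57e-07). Neither gene's groups overlapped, as at 70.8% of the genes tested, and DMSO lay between them.

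Cldn3 and Cldn4 encode claudins of tight junctions. Cldn3 was at 3 and 7 in p38i and 48 and 49 in pre-p38i (difference -3.13, SE 0.42, adjusted p = 3.61e-06). Cldn4, which lies close to it on chromosome 5, was at 4 and 6 in p38i and 66 and 68 in pre-p38i (difference -3.52, SE 0.36, adjusted p = 8.97e-08). Krt8, a keratin of simple epithelia, was at 28 and 31 in p38i and 159 and 174 in pre-p38i, with DMSO at 71 and 72, and its difference was -2.46 (SE 0.22, adjusted p = 1.64e-08). Elf3, an epithelial transcription factor of the Ets family, was at 11 in both p38i libraries and at 87 and 93 in pre-p38i (difference -2.92, SE 0.22, adjusted p = 1.1e-09). By role, 4 of 4 tested adhesion genes, 10 of 12 tight junction genes, 6 of 9 keratin and desmosome genes and 8 of 8 regulators, proteases and sorting genes were lower.

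Mesenchymal genes went the other way for the larger part. Of 25 listed, 23 were tested, 16 were higher in p38i and 1, Snai1, was lower, with a median of 0.85. Twist1, a basic helix-loop-helix factor of mesenchyme, was at 155 and 161 in p38i and 58 and 65 in pre-p38i, with DMSO at 94 and 102, a difference of 1.35 (SE 0.06, adjusted p = 1.27e-12). Zeb1, a repressor of E-cadherin, was at 16 and 18 in p38i and at 8 in both pre-p38i libraries (difference 1.00, SE 0.11, adjusted p = 2.32e-07). Both factors had DMSO between the groups with no overlap, while p38i and pre-p38i did not overlap at 70.8% of the genes tested. Snai1, also a repressor of E-cadherin, was at 2 in both p38i libraries and at 3 and 4 in pre-p38i (difference -0.58). Vim, the intermediate filament protein of mesenchymal cells, was at 2840 and 2904 in p38i and 1590 and 1680 in pre-p38i (difference 0.81, SE 0.05, adjusted p = 1.9e-10). Cdh11, a mesenchymal cadherin, was at 42 and 45 in p38i and 16 and 19 in pre-p38i. Thy1, a surface marker of fibroblasts, was at 30 and 32 in p38i and 13 and 15 in pre-p38i (difference 1.10, SE 0.11, adjusted p = 8.49e-08), and MEFs had it at 377 and 379. The Cdh11 transcript shares stretches above 95% identity with several unnamed genes of the annotation.

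**Figure D3:**
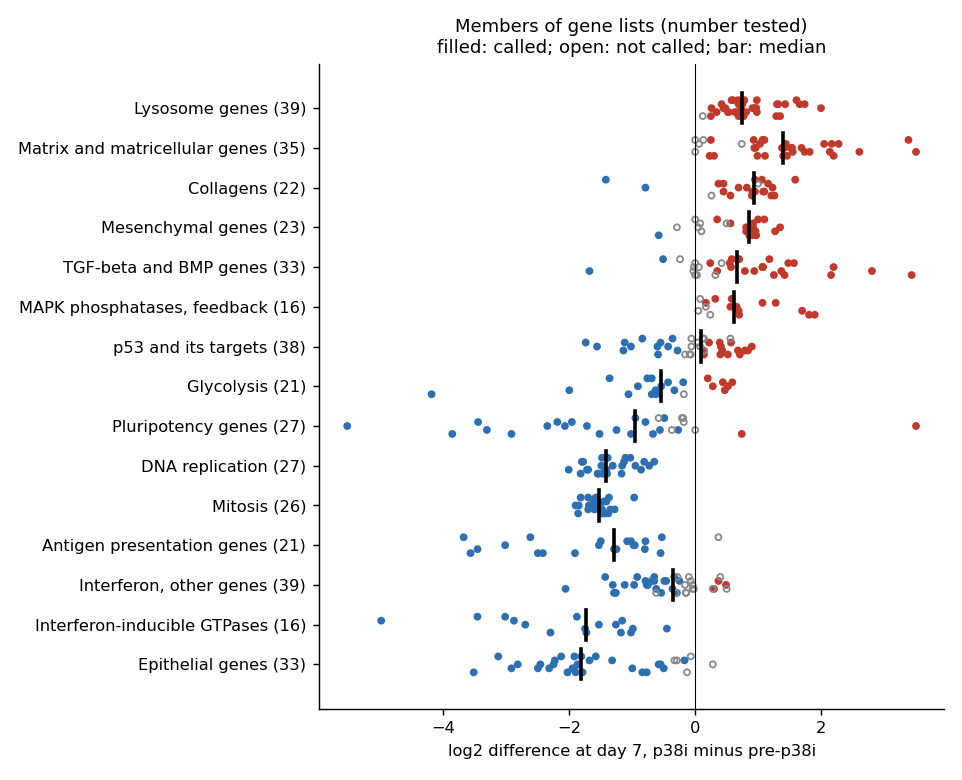
Each point is a tested member of a gene list, placed by its log2 difference of p38i minus pre-p38i on day 7, filled where called (red higher, blue lower) and open where not, with a black bar at the list's median. Among the lists drawn, medians run from 1.40 for matrix and matricellular genes to -1.81 for epithelial genes, and p53 targets lie on both sides of 0 with a median of 0.10.

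Matrix genes were higher in p38i with few exceptions. Of the 42 listed matrix and matricellular genes 37 had a row and 35 were tested, of which 30 were higher in p38i and none lower, with a median of 1.40. Aebp1, a collagen-binding matrix protein, was at 152 and 153 in p38i and 12 and 13 in pre-p38i, with DMSO at 48 and 49 (difference 3.51, SE 0.06, adjusted p = 3.83e-19). Tnc, the matricellular protein tenascin C, was at 56 and 57 in p38i and 4 and 5 in pre-p38i (difference 3.39, SE 0.09, adjusted p = 2.36e-16). Ctgf, a matricellular protein and a YAP target, was at 451 and 466 in p38i and 74 and 75 in pre-p38i (difference 2.61, SE 0.07, adjusted p = 2.75e-16). All 3 had the DMSO libraries in between. The abundant matrix proteins followed: Fn1, which encodes fibronectin, was at 658 and 677 in p38i and 305 and 313 in pre-p38i, and Sparc was at 1745 and 1776 in p38i and 651 and 685 in pre-p38i.

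Of 25 listed collagens 22 were tested, 18 were higher in p38i and 2 were lower, with a median of 0.93. Col14a1 passed the filter only through p38i, and without it 17 of 21 were higher. Col5a1, a fibril collagen, was at 72 and 76 in p38i and 23 and 25 in pre-p38i (difference 1.59, SE 0.09, adjusted p = 1.3e-11). Col12a1, at the surface of fibrils, was at 20 and 25 in p38i and 8 and 10 in pre-p38i, and Col16a1 at 14 and 15 in p38i and 5 and 6 in pre-p38i. The 2 lower ones were Col2a1, the cartilage collagen, at 43 and 45 in p38i and 75 and 79 in pre-p38i (difference -0.79), and Col15a1, at 2 in both p38i libraries and 7 in both pre-p38i libraries. Against the same DMSO libraries, 5 of the 22 were higher in p38i and 18 were lower in pre-p38i, where over all genes tested 16.5% and 14.5% were called in these directions.

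Proteases that cut the matrix, and their inhibitors, were also mostly higher in p38i, 18 of 25 tested against 3 lower, with a median of 0.94. Timp2, an inhibitor of metalloproteinases, was at 623 and 682 in p38i, 78 and 85 in pre-p38i and 258 and 266 in DMSO (difference 2.99, SE 0.05, adjusted p = 2.06e-19). Mmp12, the macrophage elastase, was at 25 and 28 in p38i and at 1 and 2 in pre-p38i (difference 3.49, SE 0.21, adjusted p = 4.14e-11). Adamts14, which trims procollagen, was at 26 and 28 in p38i and 2 and 3 in pre-p38i, and Adamts5, which cuts aggrecan, was at 8 and 10 in p38i and at 1 in both pre-p38i libraries. Mmp3, stromelysin, was lower, at 7 and 8 in p38i and 13 and 14 in pre-p38i (difference -0.77, SE 0.24, adjusted p = 0.0116). It was highest in DMSO, at 27 and 39, and its call was lost without replicate 1 of either group.

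Among TGF-beta and BMP genes 22 of 33 tested were higher in p38i and 2 lower. Of 15 ligands and receptors 12 were higher and none lower. Grem1, a secreted antagonist of BMPs, was at 135 and 145 in p38i, at 12 in both pre-p38i libraries and at 98 and 105 in DMSO, a difference of 3.44 (SE 0.05, adjusted p = 7.08e-20). Ltbp3, which binds latent TGF-beta, was at 44 and 46 in p38i and 14 and 15 in pre-p38i, and Bmp1, a procollagen protease, was at 87 in both p38i libraries and 30 and 31 in pre-p38i. The 2 lower genes were the BMP targets Id3 and Id1, which encode inhibitors of helix-loop-helix factors. Of the other Id genes listed, Id4 was higher (difference 0.57, SE 0.16, adjusted p = 0.00537) and Id2 did not pass the test (difference 0.03). Smad6 and Smad7, also listed, did not pass it either. Id3 was at 29 and 31 in p38i and 96 and 101 in pre-p38i (difference -1.68, SE 0.10, adjusted p = 6.1e-11). Id1 was at 25 and 39 in p38i and 44 and 46 in pre-p38i (difference -0.51, SE 0.18, adjusted p = 0.0206), and that call was lost without p38i replicate 1, without either pre-p38i library and in a fit of the 4 libraries alone.

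Interferon response genes were lower in p38i, most of all the interferon-inducible GTPases, proteins that coat and break up the vacuoles of intracellular pathogens. All 56 listed genes had a row, 55 were tested, 38 were lower and 3 higher, with a median of -0.65. Of 16 tested GTPases 16 were lower, 14 of them by a log2 difference of at least 1, with a median of -1.74. Igtp was at 23 and 25 in p38i, 187 and 217 in pre-p38i and 84 and 96 in DMSO (difference -3.02, SE 0.23, adjusted p = 1.1e-09). Gm12250, also called Irgb10, was at 3 and 4 in p38i and 45 and 52 in pre-p38i (difference -3.46, SE 0.26, adjusted p = 1.26e-09). Iigp1 was at 3 and 4 in p38i and at 32 in both pre-p38i libraries, and Gbp2, a guanylate-binding protein, was at 34 and 39 in p38i and 121 and 125 in pre-p38i. In each of these genes DMSO lay between the groups. The groups did not overlap either, as at 70.8% of the genes tested, and for Igtp and Gm12250 that was a condition of being named.

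Tgtp2 had the lowest difference of the family, with 4 in both p38i libraries, 148 and 169 in pre-p38i and 51 and 58 in DMSO (difference -4.99, SE 0.30, adjusted p = 5.73e-11). Its transcript is 99.8% identical to that of Tgtp1 over 2811 bases, so how reads were shared between these neighbours on chromosome 11 is uncertain. Summed, the pair was at 149 and 158 in p38i, 506 and 530 in pre-p38i and 402 and 437 in DMSO, a difference of -1.75 on the same scale.

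The promoters of Igtp and Tgtp2 are shown because both carry, close to the start site, sequences that interferon-activated factors recognise. The ISRE was searched as GAAA, any 2 bases and GAAA again, and the GAS element as TTCNNNGAA. Capitals mark both kinds of match, which do not overlap. Igtp is at chr11:58199306-58199605 on the plus strand and Tgtp2 at chr11:49064163-49064462 on the minus strand, both from the RefSeq table for GRCm38.p6.

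Igtp: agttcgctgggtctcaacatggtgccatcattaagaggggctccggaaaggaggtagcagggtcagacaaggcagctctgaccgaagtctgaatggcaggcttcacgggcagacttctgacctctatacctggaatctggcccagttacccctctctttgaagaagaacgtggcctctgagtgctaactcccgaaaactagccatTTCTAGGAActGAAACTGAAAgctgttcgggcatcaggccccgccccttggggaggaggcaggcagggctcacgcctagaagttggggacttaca
Tgtp2: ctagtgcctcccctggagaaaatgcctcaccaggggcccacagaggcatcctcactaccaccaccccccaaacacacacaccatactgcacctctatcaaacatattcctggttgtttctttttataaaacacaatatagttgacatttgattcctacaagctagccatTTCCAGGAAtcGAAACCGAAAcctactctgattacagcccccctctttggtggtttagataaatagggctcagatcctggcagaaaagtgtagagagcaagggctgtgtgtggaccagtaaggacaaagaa

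In Igtp the ISRE match begins 34 bases before the start site and the GAS match 45 bases before it, and in Tgtp2 they begin 70 and 81 bases before it. Of the 10 tested GTPase genes with a promoter entry, 10 held the ISRE letters and 7 the GAS letters on either strand, against 3.09% and 6.66% of the promoters of all tested genes. The other interferon genes held the ISRE letters in 13 of 29 promoters (44.8%).

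The sensors, effectors and regulators were less uniform, with 22 of 39 lower, 3 higher and a median of -0.36. Isg15, a ubiquitin-like protein induced by type I interferon, was at 201 and 230 in p38i and 260 and 273 in pre-p38i, and did not pass the test (difference -0.31, SE 0.21, adjusted p = 0.22). The 3 higher genes were Ifit2, Lgals3bp and Eif2ak2, with differences of 0.49, 0.37 and 0.30. Ifit2 and Lgals3bp each lost the call in 6 of 11 alternative fits, and Eif2ak2 lost its call without pre-p38i replicate 2 and in a fit of the 4 libraries alone.

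Antigen presentation genes, which load peptides on MHC class I, followed the GTPases. All 21 listed were tested, 20 were lower and none was higher, with a median of -1.29. The exception, H2-T24, was at 5 and 6 in p38i and at 4 in both pre-p38i libraries and did not pass the test. Psmb8 and Psmb9, subunits of the immunoproteasome and neighbours on chromosome 17, were at 17 and 19 and at 6 and 10 in p38i and at 236 and 248 and at 99 and 107 in pre-p38i. Their differences were -3.68 (SE 0.42, adjusted p = 4.1e-07) and -3.57 (SE 0.22, adjusted p = 7.87e-11). Tap1, a subunit of the peptide transporter, was at 29 and 31 in p38i and 164 and 166 in pre-p38i. H2-K1, a classical class I heavy chain, was at 437 and 483 in p38i, 1724 and 1738 in pre-p38i and 1338 and 1476 in DMSO (difference -1.91, SE 0.07, adjusted p = 5.25e-14). B2m, the light chain, was lower by less, at 3094 and 3113 in p38i and 4453 and 4506 in pre-p38i (difference -0.53, SE 0.04). H2-Q6 was at 6 and 7 in p38i and 78 and 85 in pre-p38i, but it shares near-identical stretches with H2-Q4 and H2-Q7, among which reads may have been split. Against DMSO, 19 of these genes were lower in p38i and 14 were higher in pre-p38i (background of 17.6% and 15.4% of all genes tested in these directions).

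Cell cycle genes were lower in p38i in nearly every branch of the list. Of 92 listed, 90 had a row and were tested, 80 were lower and 7 higher, with a median of -1.41. All 27 DNA replication genes were lower, as were all 26 mitosis genes and 16 of 17 cytokinesis genes, while Rhoa, the 17th, was at 316 and 317 in p38i and 308 and 335 in pre-p38i. Mcm5, a subunit of the replicative helicase, was at 41 and 46 in p38i, 152 and 156 in pre-p38i and 100 and 106 in DMSO (difference -1.80, SE 0.09, adjusted p = 4.36e-12). Gins1, which joins that helicase, was at 6 and 11 in p38i and 35 and 37 in pre-p38i (difference -2.01, SE 0.20, adjusted p = 4.78e-08). Plk1, a kinase of mitotic entry and cytokinesis, was at 35 and 38 in p38i, 129 and 133 in pre-p38i and 83 and 84 in DMSO (difference -1.82, SE 0.06, adjusted p = 1.7e-14). Aurkb, a kinase of the midbody, was at 21 and 27 in p38i and 72 and 79 in pre-p38i, and Mki67, the proliferation marker Ki-67, at 17 and 18 in p38i and 49 and 50 in pre-p38i. DMSO lay between the groups in these genes. The groups did not overlap, as at 70.8% of the genes tested, and for Gins1 that was a condition of being named.

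Over the list, 72 of 90 genes were lower in p38i than in DMSO and 72 of 90 were higher in pre-p38i than in DMSO, against 17.6% and 15.4% of all genes tested. Both comparisons use the same DMSO libraries. Their medians were -0.85 and 0.51.

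The promoters of Ncapg, a condensin subunit, and Espl1, the protease separase that cuts cohesin, are shown because they hold letters of the CHR element, TTTGAA, and of the CCAAT box, CCAAT or its complement ATTGG, which factors of the DREAM complex and NF-Y are known to bind in mitotic genes. Capitals mark both. Ncapg is at chr5:45669675-45669974 and Espl1 at chr15:102296043-102296342, both on the plus strand in the RefSeq table for GRCm38.p6.

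Ncapg: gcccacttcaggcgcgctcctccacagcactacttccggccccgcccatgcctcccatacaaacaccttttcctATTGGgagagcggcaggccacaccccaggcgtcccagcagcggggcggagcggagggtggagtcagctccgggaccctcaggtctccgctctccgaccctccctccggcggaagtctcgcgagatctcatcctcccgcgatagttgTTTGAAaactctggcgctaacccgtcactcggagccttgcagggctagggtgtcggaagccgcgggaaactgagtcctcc
Espl1: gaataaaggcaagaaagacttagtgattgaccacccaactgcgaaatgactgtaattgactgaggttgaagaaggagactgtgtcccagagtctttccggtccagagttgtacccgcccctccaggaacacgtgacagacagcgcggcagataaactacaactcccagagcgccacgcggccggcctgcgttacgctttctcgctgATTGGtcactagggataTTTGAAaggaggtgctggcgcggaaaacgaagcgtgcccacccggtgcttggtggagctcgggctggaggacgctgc

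The CHR letters begin 30 bases before the start site in Ncapg and 27 bases before it in Espl1. They were found on either strand in 17 of 23 promoters of mitosis genes (73.9%), in 10 of 13 of cytokinesis genes (76.9%) and in 3 of 21 of DNA replication genes (14.3%), against 11.8% of all tested genes. The CCAAT letters were in 18 of the 23 (78.3%), against 38.9%. Ncapg was at 6 and 7 in p38i and at 27 in both pre-p38i libraries (difference -1.90, SE 0.12, adjusted p = 6.06e-11), and Espl1 at 4 and 5 in p38i and 17 and 21 in pre-p38i (difference -1.86, SE 0.14, adjusted p = 1.67e-09).

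The G1 genes were mixed, with 11 of 20 lower and 7 higher, where 29.5% and 24.8% of all genes tested were. The higher ones were D cyclins, inhibitors and Cdk6 and Rbl2. Cdkn2b, the inhibitor p15, was at 73 and 77 in p38i and 29 and 32 in pre-p38i (difference 1.27, SE 0.08, adjusted p = 1.29e-10). Cdkn1c, the imprinted inhibitor p57, was at 24 and 28 in p38i and 10 and 11 in pre-p38i (difference 1.23, SE 0.18, adjusted p = 1.18e-05). Ccnd3, cyclin D3, was at 318 and 328 in p38i and 166 and 168 in pre-p38i (difference 0.95, SE 0.05, adjusted p = 2.57e-12).

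The list of p53 and its targets had no common direction. Of 38 genes 14 were higher in p38i and 12 lower, where 24.8% and 29.5% of all genes tested were. The median was 0.10. Trp53 itself was at 137 and 141 in p38i, 208 and 210 in pre-p38i and 200 and 215 in DMSO (difference -0.59, SE 0.07, adjusted p = 3.45e-07), so pre-p38i overlapped DMSO and p38i lay below. Mdm2, a target that marks p53 for degradation, was at 139 and 140 in p38i and 80 and 94 in pre-p38i (difference 0.68, SE 0.07, adjusted p = 1.51e-07). Cdkn1a, the inhibitor p21, was at 743 and 767 in p38i and 666 and 706 in pre-p38i (difference 0.14, SE 0.04, adjusted p = 0.0126), a call lost in 4 of the alternative fits. Cdkn2a, whose products p16 and p19Arf act on Rb and p53, was at 374 and 402 in p38i and 201 and 213 in pre-p38i (difference 0.90, SE 0.06, adjusted p = 4.1e-10). Perp, a desmosomal target, was at 231 and 252 in p38i and 136 and 142 in pre-p38i, and Rrm2b, a ribonucleotide reductase subunit, at 11 and 14 in p38i and 6 and 7 in pre-p38i. Gdf15, a stress cytokine, was lower, at 4 and 5 in p38i and 15 and 20 in pre-p38i (difference -1.74, SE 0.21, adjusted p = 8.36e-07). Gtse1 and Ckap2, p53 targets with roles in mitosis, were lower by 1.12 and 1.14 on the log2 scale.

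Of 17 tested isoforms and kinases of p38 signalling 4 were higher in p38i and 2 lower, where 24.8% and 29.5% of all genes were. Mapk14, p38 alpha, was at 41 and 45 in p38i and 48 and 52 in pre-p38i (difference -0.21, SE 0.07, adjusted p = 0.0196), and Mapk11, p38 beta, at 3 in both p38i libraries and 1 and 2 in pre-p38i (difference 0.71, SE 0.22, adjusted p = 0.0116). The Mapk14 call was lost with quantile normalization, without p38i replicate 2 and without pre-p38i replicate 1, the Mapk11 call without pre-p38i replicate 2, and both in a fit of the 4 libraries alone. Mapk13 was at 17 and 19 in p38i and 18 and 21 in pre-p38i, and Mapk12 was at 1 in all 4 libraries. Of 16 phosphatases and feedback inhibitors of MAP kinases 12 were higher in p38i and none lower, with a median of 0.62. Dusp1, a phosphatase of p38 and JNK, was at 39 and 41 in p38i, 9 and 11 in pre-p38i and 18 and 21 in DMSO (difference 1.90, SE 0.10, adjusted p = 7.5e-12). Dusp14 was at 206 and 229 in p38i and at 89 in both pre-p38i libraries, with DMSO at 203 and 214, overlapping p38i. Dusp8 was at 9 and 10 in p38i and at 2 in both pre-p38i libraries.

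Immediate early genes were higher for the larger part, 13 of 23 tested against 2 lower, with a median of 0.61. Egr1, a zinc finger factor induced by growth signals, was at 29 and 46 in p38i and 8 and 9 in pre-p38i (difference 1.98, SE 0.28, adjusted p = 5.2e-06). Fos, a subunit of AP-1, was at 9 and 12 in p38i and 3 and 5 in pre-p38i (difference 1.22, SE 0.21, adjusted p = 5.06e-05), a call lost in a fit of the 4 libraries alone. Mafk, a small Maf protein, was at 42 in both p38i libraries and 23 and 24 in pre-p38i. Myc was lower, at 18 and 19 in p38i and 34 and 35 in pre-p38i (difference -0.86, SE 0.13, adjusted p = 8.83e-06).

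Lysosome genes were higher in p38i almost without exception, 38 of 39 tested and none lower, with a median of 0.75, against 24.8% of all genes higher. Flcn alone did not pass the test, at 46 and 61 in p38i and 42 and 56 in pre-p38i. Ctsk, Ctsl and Ctsd encode lysosomal proteases. Ctsk was at 208 and 210 in p38i and 50 and 53 in pre-p38i (difference 2.00, SE 0.10, adjusted p = 6.21e-12). Ctsl was at 1118 and 1121 in p38i and at 334 in both pre-p38i libraries (difference 1.74, SE 0.05, adjusted p = 1.08e-15). Ctsd was at 1686 and 1713 in p38i, 556 and 560 in pre-p38i and 1063 and 1116 in DMSO (difference 1.61, SE 0.04, adjusted p = 7.75e-17). Lamp1, a membrane protein of the lysosome, was at 1143 and 1156 in p38i and 674 and 698 in pre-p38i. Gpnmb, a glycoprotein of stressed lysosomes, was at 105 and 117 in p38i and 33 and 36 in pre-p38i. Against DMSO 36 of these genes were higher in p38i and 29 were lower in pre-p38i, where 16.5% and 14.5% of all genes tested were.

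Macrophage markers, listed as a sign of other cells in the culture, were also higher in p38i. Of 28 with a row 22 were tested, 16 were higher and 2 lower, with a median of 1.07. Their summed level was 300 to 356 in p38i, 161 to 163 in pre-p38i and 502 to 505 in DMSO, and 6 of the markers were at 0 in all 4 libraries, among them Ptprc, Fcgr1, Cd163 and Cx3cr1, with Csf1r at 0 or 1. Other defining markers were detected and higher in p38i. Adgre1, the surface protein F4/80, was at 3 and 4 in p38i and at 1 in both pre-p38i libraries, C1qc at 6 and 7 against 1 and 2, Tyrobp at 6 and 7 against 1 and 2, Trem2 at 3 and 4 against 0 and Cd53 at 3 against 0. Lyz2, lysozyme of macrophages and granulocytes, had the largest called positive difference of the named genes, at 113 and 135 in p38i, 7 and 9 in pre-p38i and 98 and 109 in DMSO (difference 3.80, SE 0.10, adjusted p = 5.44e-16), so p38i did not overlap DMSO but stood close to it. Cd68, a lysosomal membrane protein of macrophages, was at 49 and 54 in p38i and 22 and 27 in pre-p38i, and C1qb, a complement subunit, was at 8 in both p38i libraries, 1 and 3 in pre-p38i and 15 and 16 in DMSO, a call lost in a fit of the 4 libraries alone. The lower ones were Cd209f and Mpeg1. Cd209f and its 99.6% identical neighbour Cd209g summed to 0 in both p38i libraries, 24 and 29 in pre-p38i and 76 and 85 in DMSO. The part of such cells in the lysosome, matrix and interferon differences was not tested.

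Genes of other cell types gave no common direction, where 24.8% of all genes tested were higher and 29.5% lower. Of 27 epidermal genes 15 were tested, 5 were higher and 6 lower, or 5 of 14 without Dsg3, which passed the filter only through pre-p38i. Tgm3 and Tgm1, transglutaminases of cornifying cells, were at 7 and 9 and at 4 and 5 in p38i and at 24 and 28 and at 13 and 15 in pre-p38i, and Sfn, an epithelial 14-3-3 protein, was at 18 in both p38i libraries and 38 and 42 in pre-p38i. Crct1 and Sprr1a, of the cornified envelope, were at 9 and 14 and at 9 and 15 in p38i and at 1 and 3 and at 4 and 5 in pre-p38i, and both calls were lost in a fit of the 4 libraries alone, the Sprr1a call also without p38i replicate 1. Of 12 T and NK cell markers 9 were at 0 in all 4 libraries, among them Cd3e, Cd8a and Nkg7. The other 3 were lower in p38i. Cd2, an adhesion receptor of T cells, was at 5 and 6 in p38i and 27 and 45 in pre-p38i, Lck, a kinase of the T cell receptor, at 2 and at 9 and 14, and Cd3g, a subunit of that receptor, at 9 and 17 and at 25 and 28. The Cd3g call was lost in a fit of the 4 libraries alone, without p38i replicate 1 and when the pseudocount was 0.1. Of 12 endothelial markers 4 were tested and 2 were higher, 50% called against 54.3% of all genes tested. None exceeded 2 in any of the 4 libraries except Tek, at 59 to 67. Of 7 tested neural markers 2 were higher, Syt1 and Nefm, and 3 lower, Tubb3, Map2 and Stmn2, with differences between -1.05 and 0.57.

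Contractile genes and YAP targets were higher in p38i in 17 of 27 tested and lower in 2, with a median of 0.75. Tagln, an actin-binding protein of smooth muscle and myofibroblasts, was at 23 and 32 in p38i and 2 and 3 in pre-p38i (difference 3.02, SE 0.13, adjusted p = 4.36e-13), far below the 3195 and 3238 of MEFs. Acta2, smooth muscle actin, was at 50 and 52 in p38i and 16 and 20 in pre-p38i (difference 1.46, SE 0.11, adjusted p = 9.42e-10), and Crim1 at 33 and 38 in p38i and 11 and 13 in pre-p38i. Nuak2, a kinase and YAP target, was lower, at 12 and 14 in p38i and 30 and 32 in pre-p38i, and Actg2, a smooth muscle actin, was at 16 and 21 in p38i and 25 and 27 in pre-p38i, a call lost without p38i replicate 2 and in a fit of the 4 libraries alone.

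Secreted factors were tested at 22 of 28 listed cytokine and prostaglandin genes, with 10 higher in p38i and 2 lower, Cxcl10 and Cxcl14. In all 54.5% were called, against 54.3% of all genes tested, of which 24.8% were higher and 29.5% lower. Cxcl12, a chemokine of stromal cells, was at 14 in both p38i libraries and 1 and 2 in pre-p38i (difference 2.61, SE 0.24, adjusted p = 2.29e-08). Vcam1, an adhesion receptor for leukocytes, was at 74 and 92 in p38i and 20 and 22 in pre-p38i (difference 1.93, SE 0.10, adjusted p = 5.67e-12). Csf1, the growth factor of macrophages, was at 64 and 66 in p38i and 33 and 35 in pre-p38i (difference 0.92, SE 0.07). Il1rn, the interleukin 1 receptor antagonist, was at 18 and 20 in p38i and at 1 and 2 in pre-p38i, and Csn3, kappa casein, at 19 in both p38i libraries and 1 and 2 in pre-p38i (differences of 3.03 in both).

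Glycolysis genes were lower in 14 of 21 and higher in 6, with a median of -0.54. Hypoxia response genes were higher in 8 of 16 and lower in 3. Over all genes tested, 24.8% were higher and 29.5% lower. Slc2a3, the high-affinity glucose transporter Glut3, was at 19 and 20 in p38i, 81 in both pre-p38i libraries and 65 and 69 in DMSO (4.0-fold lower on the log2(value + 1) scale, adjusted p = 6.95e-09). The gene starts at position 122727809 of chromosome 6, close to Nanog. Slc16a3, which exports lactate, was at 0 and 2 in p38i, 24 and 39 in pre-p38i and 1 in both DMSO libraries (difference -4.19, SE 0.35, adjusted p = 5.43e-09). Ndufa4l2, a hypoxia-induced mitochondrial protein, was alike, at 0 and 1 in p38i, 27 and 47 in pre-p38i and 0 and 1 in DMSO, and passed the filter only through pre-p38i. Aldoc, an aldolase, was at 16 and 17 in p38i, 40 and 48 in pre-p38i and 14 and 18 in DMSO, a call lost with a pseudocount of 0.1. In these 3 genes p38i and DMSO overlapped, and pre-p38i stood apart. For Slc16a3 and Ndufa4l2 there was also a clear gap between the 2 pre-p38i libraries. Adm, adrenomedullin, was higher, at 11 and 12 in p38i and 2 and 3 in pre-p38i, as was P4ha2, a collagen hydroxylase, at 22 and 25 against 7.

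Among ATF4 stress response genes 7 of 33 tested were higher and 12 lower, 57.6% called in all, close to the 54.3% of all genes tested. Ddit3, the stress factor Chop, was at 48 and 52 in p38i and 20 and 21 in pre-p38i (difference 1.25, SE 0.13, adjusted p = 7.68e-08), and Stc2, stanniocalcin 2, at 11 and 13 in p38i and 3 and 4 in pre-p38i. Of 22 genes for amino acid synthesis and transport 11 were lower and 2 higher, where 29.5% and 24.8% of all genes were. Slc7a1, a transporter of cationic amino acids, was at 29 in both p38i libraries and 53 and 58 in pre-p38i. Of 6 tested metallothionein and zinc genes 2 were lower and none higher, 33.3% called against 54.3% of all genes tested. They were Slc39a10, a zinc transporter, and Mt2, a metallothionein, which binds zinc. Slc39a10 was at 13 and 15 in p38i and 27 and 28 in pre-p38i (difference -0.93, SE 0.10). Mt2 was at 1861 and 1935 in p38i and 2489 and 2503 in pre-p38i (difference -0.40, SE 0.05). Of 20 sterol synthesis genes 10 were lower and 1 higher, 55% called in all, where 29.5% and 24.8% of all genes were lower and higher. Hmgcs1, an early enzyme of the pathway, was at 77 and 79 in p38i and 160 and 207 in pre-p38i, and Dhcr7, a late enzyme, was the higher gene, at 119 and 123 in p38i and 76 in both pre-p38i libraries. Scd1, a fatty acid desaturase, was at 639 and 686 in p38i and 397 and 435 in pre-p38i (difference 0.67, SE 0.07).

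Imprinted genes were higher in 13 of 23 tested and lower in 4, where 24.8% and 29.5% of all genes tested were. H19 and Igf2, reciprocally imprinted neighbours on chromosome 7, were both higher, H19 at 677 and 762 in p38i and 247 and 256 in pre-p38i (difference 1.51, SE 0.07, adjusted p = 1.33e-12) and Igf2 at 300 and 307 in p38i and 103 and 112 in pre-p38i (difference 1.49, SE 0.04, adjusted p = 2.34e-15). Dcn, decorin, was at 225 and 231 in p38i and 42 and 51 in pre-p38i (difference 2.28, SE 0.08, adjusted p = 1.7e-14). Peg10, a gene derived from a retrotransposon, was at 5 in both p38i libraries and 44 and 50 in pre-p38i (difference -3.00, SE 0.09, adjusted p = 2.34e-15), and Dio3, a deiodinase that inactivates thyroid hormone, at 14 and 16 in p38i and 118 and 120 in pre-p38i (difference -2.91, SE 0.25, adjusted p = 6.94e-09). Nnat was at 106 and 117 in p38i and 173 and 176 in pre-p38i. At the Dlk1-Dio3 locus the maternal transcript Rian, at 173 and 188 in p38i and 174 and 185 in pre-p38i, overlapped between the groups.

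DNA methylation genes were lower in 8 of 11 tested and higher in none. Uhrf1, which brings the maintenance methyltransferase to replicated DNA, was at 41 and 42 in p38i, 150 and 153 in pre-p38i and 95 and 98 in DMSO (difference -1.84, SE 0.07, adjusted p = 3.15e-14). Dnmt1, that methyltransferase, was at 52 and 56 in p38i and 119 and 122 in pre-p38i (difference -1.14, SE 0.07, adjusted p = 2.77e-11), and Dnmt3b, a de novo enzyme, was at 0 and 2 in p38i and at 9 in both pre-p38i libraries, a call lost in a fit of the 4 libraries alone. Dnmt3a was at 23 and 27 in p38i and 23 and 25 in pre-p38i. The remaining genes with the lowest differences were Mylpf, a light chain of skeletal muscle myosin, at 4 in both p38i libraries and 80 and 87 in pre-p38i (difference -4.08), Bhmt, a methyltransferase of homocysteine, at 3 and 4 against 58 and 67 (difference -3.82), and Cyp2b23, a cytochrome P450, at 0 and 1 against 18 and 20 (difference -3.82).

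Set against the shared DMSO libraries, 4509 genes (34.1%) were called between p38i and DMSO and 3952 (29.9%) between pre-p38i and DMSO. Medians by list are given side by side, p38i minus DMSO first. They were -1.05 and 0.40 for epithelial genes, -0.61 and 0.16 for pluripotency genes, -1.23 and 0.57 for the GTPases and 0.49 and -0.33 for lysosome genes. For matrix and matricellular genes they were 0.36 and -0.91, and for collagens 0.12 and -0.66. Macrophage markers had both medians below 0, at -0.69 and -1.68.

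The difference between the groups widened over the induction, from 3729 genes called on day 1 (28.2%) to 5579 (42.2%) and 6280 (47.5%) on days 3 and 5 and 7181 at the end. The root mean square of the log2 differences was 0.476, 0.662, 0.699 and 0.768 on these days. Genes higher in p38i made up 29.3% of the calls on day 1 and 45.6% on day 7. A test of the change itself, the day 7 difference minus the day 1 difference, called 5359 genes (40.5%), 3034 of them moving towards p38i and 2325 towards pre-p38i.

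**Figure D4:**
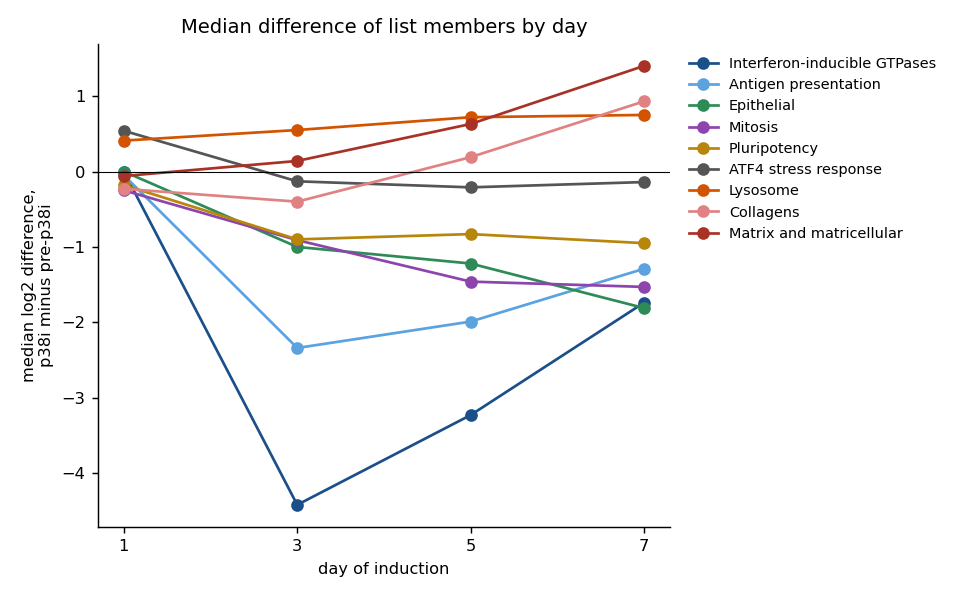
Median log2 difference of p38i minus pre-p38i over the tested members of 9 gene lists (vertical axis) on days 1, 3, 5 and 7 of induction (horizontal axis). The GTPases are lowest on day 3 at -4.42 and stand at -1.74 on day 7, while matrix genes climb from -0.06 to 1.40 and lysosome genes from 0.41 to 0.75.

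Lists took different courses. Interferon-inducible GTPases had medians of 0.00, -4.42, -3.23 and -1.74 on days 1, 3, 5 and 7. Igtp was at 0 in both p38i libraries and at 1 in both pre-p38i libraries on day 1, at 7 and 8 in p38i and 398 and 437 in pre-p38i on day 3, and at 23 and 25 in p38i and 187 and 217 in pre-p38i on day 7, so the pre-p38i level had come down by then. Of the 55 tested interferon genes, 55 were lower in p38i on day 3, 52 on day 5 and 38 on day 7, where the background of lower calls was 31.4%, 31.1% and 29.5%. Mitosis genes had medians of -0.25, -0.91, -1.46 and -1.53, and Plk1 in p38i stayed between 34 and 38 from day 3 on while in pre-p38i it climbed from 73 and 75 on day 3 to 129 and 133 on day 7. Lysosome genes were higher in p38i from day 1, when 29 of 39 were called against 8.25% of all genes.

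Collagens had medians of -0.23, -0.40, 0.19 and 0.93 on days 1, 3, 5 and 7, and on day 3 11 of 22 were lower in p38i and 1 higher. Of 35 matrix and matricellular genes 6, 14, 23 and 30 were higher in p38i on days 1, 3, 5 and 7, where the background of higher calls was 8.25%, 10.7%, 16.3% and 24.8%. Dcn was lower in p38i on day 1, at 157 and 162 against 227 and 239 in pre-p38i, and its pre-p38i level then declined to 42 and 51 on day 7 while p38i ended at 225 and 231 (change of the difference 2.82, adjusted p = 2.86e-13). H19 crossed in the same way, from 135 and 143 in p38i against 384 and 386 on day 1 (change 2.97, adjusted p = 3.89e-14). In the other direction, Mt2 was at 1137 and 1183 in p38i and 332 and 357 in pre-p38i on day 1 and was lower in p38i on day 7 (change -2.14, adjusted p = 4.53e-14). Of 33 ATF4 stress genes 24 were higher in p38i on day 1 and 7 on day 7, against 8.25% and 24.8% of all genes. Their medians were 0.54 and -0.14.

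**Figure D5:**
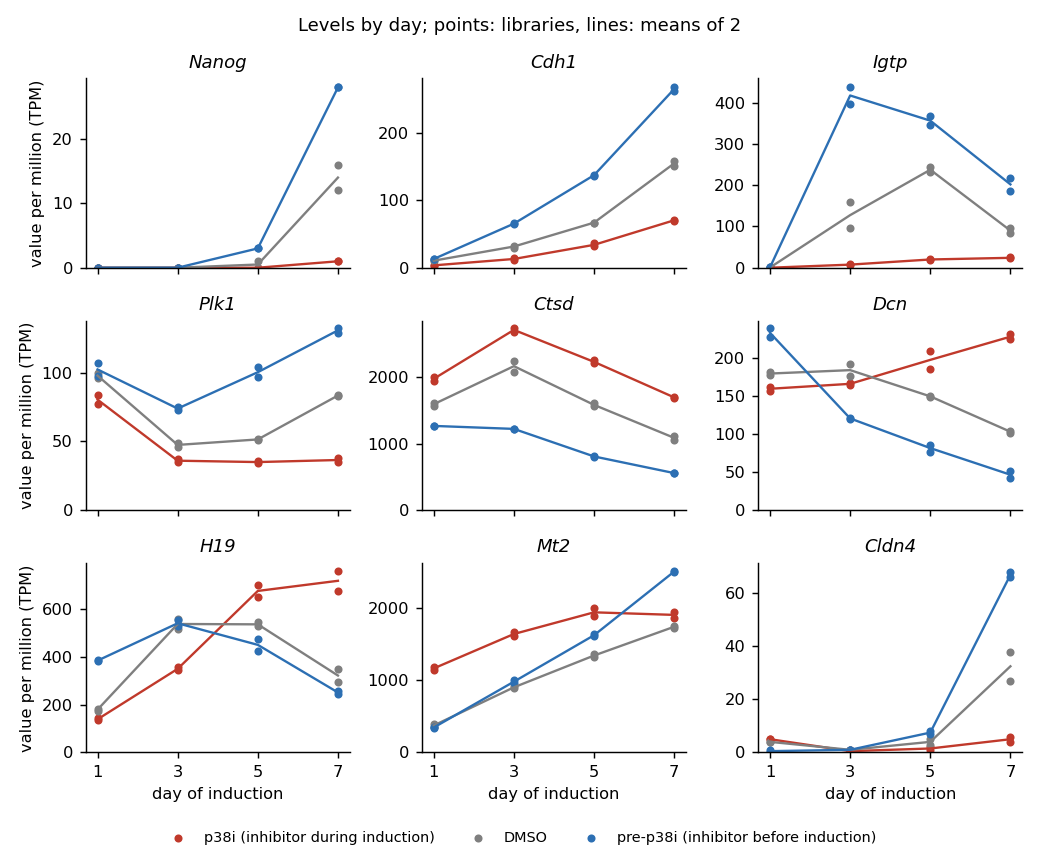
Levels (TPM, vertical axis from 0) of 9 genes on days 1, 3, 5 and 7 of induction in p38i (red), DMSO (grey) and pre-p38i (blue), with points for the 2 libraries of each group and lines for their means. Nanog leaves 0 in pre-p38i on day 5, at 3 in both libraries, and the lines of Dcn, H19 and Mt2 cross between day 1 and day 7.

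Of 33 epithelial genes 11, 24, 28 and 28 were lower in p38i on days 1, 3, 5 and 7, and of 27 pluripotency genes 8, 17, 19 and 19. The background of lower calls was 19.9%, 31.4%, 31.1% and 29.5%. The day 7 counts include Cldn6, Sall4 and Esrrb, which passed the filter only through pre-p38i. Cdh1 was already lower in p38i on day 1, at 3 and 4 against 13 in both pre-p38i libraries, and its difference did not change beyond the spread up to day 7 (-1.65 on day 1 and -1.90 on day 7, change -0.25, adjusted p = 0.149). Nanog was at 0 in all 4 libraries on days 1 and 3, and on day 5 at 0 in p38i and 3 in pre-p38i. Zfp42 was at 0 and 1 in p38i and at 10 and 13 in pre-p38i on day 3. Dppa5a was at 0 in p38i on every day and reached 41 and 50 in pre-p38i only on day 7, after 0 and 1 on day 5. Cldn4 was higher in p38i on day 1, at 5 in both libraries against 0 and 1, before its reversal by day 7 (change -5.61, adjusted p = 4.08e-08).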

How the data were processed

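Messenger RNA of 28 mouse libraries in 14 groups of 2 had been sequenced, and 4 of them are compared here. Per the labels' processing notes, the authors used Bowtie2 2.2.5 and RSEM 1.3.0, with both hg38 and mm10 named as builds. The role and order of these tools are not given in the sources used here. The deposited values are whole numbers that sum to 991287 to 992537 per library and were treated as a score. They were read as TPM rounded by the authors, an inference from these totals. Read depth is therefore unknown and no counting interval is given. The labels and the study's methods name different library kits and RNA extractions. Gene names and positions matched GENCODE M21 (GRCm38) for 99.6% of identifiers and 92.5% of positions, and 27 gene names that a spreadsheet had turned into dates were not used by name.

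Values were tested as log2(value + 1) with limma 3.58.1 in R 4.3.3 (empirical Bayes with trend), in a fit of all 28 libraries with a mean for each group, over 13230 of 50600 genes, those whose 28 values averaged 1 or more. Genes were called at a Benjamini-Hochberg adjusted p under 0.05. The change from day 1 to day 7 was tested as a contrast of contrasts. An exact permutation test of 2 against 2 libraries cannot go below a p of 0.333 and was not used. The procedure was tested on simulated data.

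Genes were named by this rule: the genes the study discusses and the 3 factors, the 10 largest differences in each direction, and up to 3 genes per direction of 28 lists. The last 2 choices took only called, non-overlapping genes whose 4 values averaged 5 or more. The 10 largest also left out genes with Gm-number, Rik or clone names, with identifiers or dates as names, and mitochondrial genes. Further abundant or textbook members, among them Epcam, Isg15, Iigp1, Gbp2, H2-K1, B2m, Tap1, Mki67, Aurkb, Plk1, Mcm5, Fn1, Sparc, Vim, Ctsd, Lamp1, Cdkn1a, Mdm2 and Igf2, and members that did not pass the test, were added after their values were seen. The comparison and the lists were chosen with earlier results of these data known. Transcripts of the named genes were searched for near-identical copies with blastn 2.17.0.

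Same-numbered libraries of the 2 groups did not deviate together (correlation of deviations 0.00348, and -0.0838 to 0.0874 over all pairs of groups), so no pairing was assumed. Alternatives were other filters, a pseudocount of 0.1, quantile normalization, a fit of the 4 libraries alone, a replicate block and leaving out each library. Some items are not reported here.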

Additional observations from a re-analysis of the deposited data

Results flagged for a closer look

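The difference between p38i and pre-p38i was itself different on day 7 and on day 1 for 5359 genes in limma's test of that change (adjusted p under 0.05). Among the genes that the study discusses and those with the largest day 7 differences, 29 passed this test. They include Crxos and Ndufa4l2, which passed the filter only through the pre-p38i libraries of day 7. The filter thus favoured a change towards pre-p38i in both, and no conclusion is drawn from the test for them. Values are the day 7 minus the day 1 log2 difference.

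The change was towards p38i for 15 of them. It was 0.84 for Pou5f1, 0.49 for Klf4, 1.48 for Twist1, 0.92 for Zeb1 and 0.92 for Mapk11. Among the genes taken for the largest day 7 differences, a choice that by itself favours large changes, it was 3.38 for Tnc, 3.27 for Aebp1, 3.26 for Spp1, 2.90 for Adamts14, 2.42 for Grem1, 2.38 for Il1rn, 2.36 for Csn3, 1.92 for Mmp12, 1.61 for Tagln and 2.71 for Lyz2.

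The change was towards pre-p38i for the other 14. It was -0.34 for Trp53, -0.67 for Mapk13, -0.96 for Krt8 and -2.63 for Cldn3. For Nanog it was -3.86, the whole of its day 7 difference, since it was listed at 0 in all 4 day 1 libraries. Dppa5a (-5.53), Tgtp2 (-4.99), Crxos (-3.89), Cd209g (-3.86), Bhmt (-3.82) and Cyp2b23 (-3.82) had a change equal to the day 7 difference as well. Mylpf (-5.74), Ndufa4l2 (-5.70) and Slc16a3 (-4.48) had changes above the size of their day 7 differences. Where a gene is at 0 in a group, the fitted change depends on the pseudocount.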

How the results depend on the processing

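Between 5424 genes (only the 4 libraries in the fit) and 7838 genes (no filter) were called on day 7, against 7181. With 1 library left out the count was 6019 to 6225, and Sox2 ranged from -0.08 to 0.05. With the replicate block 7038 genes were called, 3203 higher and 3835 lower, though the numbers were not found to pair the libraries. A minimum mean of 5, which tests 10668 genes, left 651 genes lower by a log2 difference of at least 1, against 1030. Quantile normalization put 51.8% of the calls higher in p38i, against 45.6%. The call rule for the change from day 1 gave 4688 to 5601 genes. Of 157 named genes called, 137 kept direction and call in all 11 alternatives. The sign turned for Sox2, to 0.05 without p38i replicate 1 and to 0.01 without pre-p38i replicate 2, and for Klf4, to -0.06 with quantile normalization, none of them called. Counts of list members moved by over 1.5 times in 64 values and stayed within that in 552. Epithelial genes lower in p38i were 17 with a minimum mean of 5 and 18 with a pseudocount of 0.1, against 28. Macrophage markers higher were 9 with a minimum mean of 5, against 16. Glycolysis and hypoxia genes higher were 8 in the fit of 4 libraries, against 14, and cytokine genes higher were 6 without pre-p38i replicate 2, against 10. The causes were not tested, except that the higher minimum tests fewer genes. Whole-number values limit the precision of genes at a few TPM.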
